A study of Mus musculus with 44 samples.

Results

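Pulmonary surfactant genes and genes of the alveolar type 2 cell were followed in mouse lungs that carried a tumour at a distance, a tumour instilled into the airway, or no tumour. The set held 10 genes chosen by name, Sftpa1, Sftpb, Sftpc, Sftpd, Abca3, Lpcat1, Lamp3, Napsa, Slc34a2 and Etv5. All 10 were present among 24150 genes of the subcutaneous experiment and among 26940 genes of the intratracheal experiment, and all 10 passed the filter on low values in each of 14 comparisons.

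Surfactant is the film of lipid and protein that lowers surface tension at the air side of the alveolus and keeps it from collapsing. Alveolar type 2 cells make it, pack it into lamellar bodies and secrete it, and they also serve as progenitors of the flat alveolar type 1 cells that carry gas exchange. The transcription factor NKX2-1, with partners such as FOXA1, FOXA2 and CEBPA, switches on surfactant genes, and growth factor signals through FGF receptors and ETS factors such as ETV5 help to keep type 2 identity.

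All mice were of the C57BL6j strain, and polyA RNA was sequenced from lung pieces of about 3 mm3. In the subcutaneous experiment, wild-type mice had LL/2-Luc2 cells injected (1000000 per mouse) beneath the skin; LL/2 is a mouse lung tumour line, Lewis lung carcinoma, made here to express luciferase. Their lungs were collected at an early metastatic stage. These mice were given recombinant human TIMP2 (rTIMP2, an inhibitor of matrix metalloproteinases) from day 7 (n = 4), rTIMP2 from day 0 (n = 5) or HBSS, a salt buffer (n = 5). In the intratracheal experiment, mice with a mutant Timp2 gene (MT2) and wild-type mice (WT) were studied with the same cells put into the trachea (1000000 per mouse) and rTIMP2, with the same cells and HBSS, and without tumour (n = 5 in each of these 6 groups). Treated mice received 200 µg of rTIMP2 per kg per day into the peritoneum. The labels describe the mutant only as mutant Timp2, and they give no sex or age of the mice.

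Libraries were scaled by the authors and deposited as normalized counts, with an estimated depth of 14860000 to 19410000 reads in the subcutaneous and 10680000 to 17140000 reads in the intratracheal experiment. Timp2 itself ranged from 5948 to 6237 in MT2 and from 10147 to 11489 in WT tumour-free lungs (log2 fold change -0.80 ± 0.05, limma adjusted p = 1.7e-07). With tumour it ranged from 5487 to 9597 in MT2 and 5809 to 10119 in WT lungs with rTIMP2, and from 6512 to 11992 in MT2 and 5753 to 7781 in WT lungs with HBSS. Some treated lungs stood apart from the rest of their group by the tumour reporter Luc2. It was listed at 75.5, 0.983, 50.9, 37.9 and 55.3 in the MT2 lungs with rTIMP2 and at 23.3, 0, 0, 67.7 and 0 in the WT lungs with rTIMP2, replicates 1 to 5. The 10 HBSS tumour lungs had 39.3 to 70.9, and each of the 10 tumour-free lungs had 0. In subcutaneous lungs Luc2 was 19.3 to 41.3 from day 7, 16.3 to 44.8 from day 0 and 14.3 to 31.3 with HBSS. The tumour and proliferation transcript Hmga2 was at 6.10 to 18.0, 7.25 to 13.9 and 1.01 to 6.40 there. It was at 9.52 to 27.8 in tumour-free lungs and 1198 in the treated WT lung with a reporter of 23.3. Whether the reporter measures tumour content alike in both experiments was not tested. Sex-linked transcripts also split the libraries. Values of Ddx3y, on the Y chromosome, were 234 to 1321 in treated lungs, 123 to 672 in HBSS tumour lungs and 0.910 to 5.78 in tumour-free lungs. The 4 treated lungs with a reporter under 1 had Ddx3y at 1024 to 1321, Hmga2 at 13.6 to 63.9 and Xist at 42.2 to 119. The other treated lungs had Ddx3y at 234 to 686, Hmga2 at 1198 to 5299.5 and Xist at 1778 to 4843. Xist was at 1963, 42.2, 92.4, 2033 and 54.5 in the treated WT lungs, against 2399 to 6691 in WT HBSS and 4118 to 5057 in WT tumour-free lungs. In MT2 mice it ranged from 119 to 4843 with rTIMP2, 1153 to 8305 with HBSS and 4488 to 6657 without tumour. Counts of called genes in comparisons with treated intratracheal lungs are therefore given with all libraries and again without the 4 treated lungs whose reporter value was under 1, while the values of named genes outside the set are given with all libraries only.

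The 10 genes covered a wide range of abundance. Per kilobase of exon, mean normalized counts in WT tumour-free lungs were 180466 for Sftpc, 27029 for Sftpb, 14489.8 for Sftpa1 and 3815 for Sftpd, the surfactant proteins. On the same per-kilobase scale the phosphate transporter gene Slc34a2 stood at 5202, the lamellar body gene Lamp3 at 2343, the protease gene Napsa at 1858, the lipid enzyme gene Lpcat1 at 1539.8, the lipid transporter gene Abca3 at 847 and the transcription factor gene Etv5 at 613. The order of the genes thus ran over more than 2 orders of magnitude, with Sftpc on top in all 9 groups. Together the 10 genes took 2.59 ± 0.144% of the summed values in MT2 and 2.60 ± 0.192% in WT tumour-free lungs (SD, n = 5 each).

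The genes lie at scattered places in the genome, apart from a pair on chromosome 14 (coordinates in GRCm38). Sftpa1 (chr14:41131782-41136452, forward strand) and Sftpd (chr14:41172214-41185149, reverse strand), both collectins that bind microbes and lipids, are 35762 bases apart. Sftpc lies elsewhere on the same chromosome (chr14:70520949-70524081, reverse strand), and Sftpb lies at chr6:72304610-72314371 on the forward strand. Abca3 spans chr17:24351950-24410201, Lpcat1 chr13:73467197-73516422, Napsa chr7:44572380-44586862 and Slc34a2 chr5:53038081-53071664, all on the forward strand. Lamp3 spans chr16:19653378-19706375 and Etv5 chr16:22381309-22439719, both on the reverse strand. Genes on the opposite strand overlap Abca3 (D330041H03Rik), Napsa (Gm15396) and Slc34a2 (Gm17182), and whether counting used the strand is not given in the sources used here. Those partners had low values, at most 189.9 normalized counts for D330041H03Rik, 13.4 for Gm15396 and 18.5 for Gm17182.

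Sequence just upstream of the start sites is shown for the genes whose profiles are set against each other below, Sftpb and Sftpa1 as surfactant protein genes, and Lamp3 and Abca3 as lamellar body genes, of which Lamp3 had members of the set among its 20 nearest genes by profile and Abca3 had none. RefSeq promoter sequences (GRCm38.p6) were matched for 7 of the 10 genes, and exon bases were left out. Capitals mark a core of the NKX2-1 motif, CTCAAG, or a core of the FOXA motif, which is TGTTTAC. Both strands were searched, so that a match may also read CTTGAG for the first core, or, for the second, GTAAACA.
Sftpb: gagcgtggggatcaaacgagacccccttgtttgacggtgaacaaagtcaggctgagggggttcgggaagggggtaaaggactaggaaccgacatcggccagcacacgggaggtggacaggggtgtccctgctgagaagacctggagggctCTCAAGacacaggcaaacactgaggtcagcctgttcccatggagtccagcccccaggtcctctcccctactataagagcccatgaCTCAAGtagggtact
Sftpa1: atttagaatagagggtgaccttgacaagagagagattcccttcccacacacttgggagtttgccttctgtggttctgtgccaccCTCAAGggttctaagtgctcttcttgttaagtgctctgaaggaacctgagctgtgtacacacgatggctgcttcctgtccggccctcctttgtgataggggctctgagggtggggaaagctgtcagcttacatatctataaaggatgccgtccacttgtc
Lamp3: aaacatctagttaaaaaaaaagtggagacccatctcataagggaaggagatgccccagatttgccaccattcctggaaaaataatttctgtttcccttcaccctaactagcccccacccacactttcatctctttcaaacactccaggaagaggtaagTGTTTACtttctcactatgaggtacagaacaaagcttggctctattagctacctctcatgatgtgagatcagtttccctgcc
Abca3: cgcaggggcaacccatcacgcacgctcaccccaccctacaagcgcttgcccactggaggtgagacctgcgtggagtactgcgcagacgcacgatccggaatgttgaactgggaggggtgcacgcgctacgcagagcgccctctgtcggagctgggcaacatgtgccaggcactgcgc
The stretches are chr6:72304360-72304609 (forward strand) for Sftpb, chr14:41131538-41131781 (forward) for Sftpa1, chr16:19706376-19706615 (reverse) for Lamp3 and chr17:24351773-24351949 (forward) for Abca3, each written 5′ to 3′ on the gene's strand. Distances were counted from the RefSeq start sites, chr6:72304610 for Sftpb, chr14:41131788 for Sftpa1 and chr16:19706365 for Lamp3. For Sftpa1 and Lamp3 these sites lie some bases past the end of the printed stretch. The Abca3 site, chr17:24352023, lies farther past the end of its stretch, since the exon bases between were left out. Sftpb held CTCAAG 100 and 15 bases upstream of its start and Sftpa1 held it 166 bases upstream, while TGTTTAC began 92 bases upstream of Lamp3. Neither set of letters occurred in the Abca3 stretch or in the bases between it and the start. CTCAAG occurred on either strand in 13.3% of 32851 RefSeq windows of 250 bases upstream of a start, with 2 or more copies in 0.998%, and TGTTTAC occurred in 3.17%. Of the 7 genes with a window, 2 held CTCAAG (Sftpa1 and Sftpb) and 2 held TGTTTAC (Lamp3 and Etv5).

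In the airway model, HBSS tumour lungs had far lower levels of all 10 genes than tumour-free lungs, in MT2 and in WT mice. Fold changes on the log2 scale ran from -4.25 to -2.27 in MT2 mice (median -3.25, against -0.05 over all genes tested) and from -2.91 to -1.65 in WT mice (median -2.50, against -0.07). All 10 genes were called lower in each genotype at a limma adjusted p under 0.05, where 35.9% of all genes tested in MT2 and 37.7% in WT mice were called lower. All values of the HBSS tumour lungs lay below all values of the tumour-free lungs for 9 genes in MT2 mice (31.4% of all genes) and for all 10 in WT mice (31.1%). These 10 genes were therefore among a large part of the transcriptome that was lower, and in bulk tissue fewer cells of a type and less RNA per cell cannot be told apart.

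**Figure D1:**
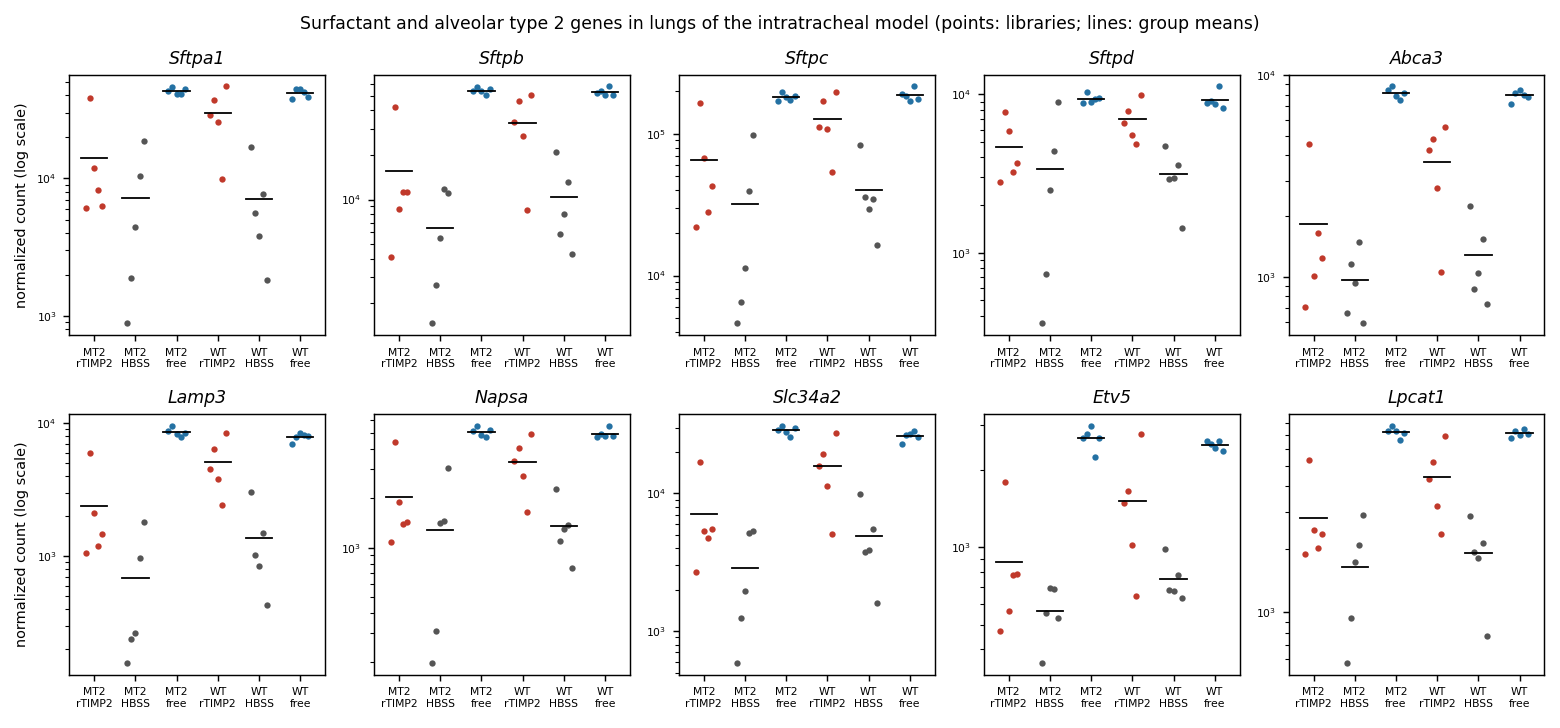
Normalized counts (log axis) of the 10 genes in the 6 groups of the intratracheal experiment, with 1 point per lung and lines at the group means. Within each genotype the mean of every gene is lowest in HBSS tumour lungs and highest in tumour-free lungs, and in treated MT2 lungs replicate 2 has the highest value of every gene.

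Among the surfactant proteins, Sftpc, which encodes a small hydrophobic protein made by type 2 cells alone among lung cells, had 4598, 6542, 11249, 39572 and 97273 normalized counts in the 5 HBSS tumour lungs of MT2 mice, against 171137, 195966, 181556, 172352 and 184681 in the MT2 tumour-free lungs. In WT mice it had 83334, 35878, 29539, 34905 and 16354 in HBSS tumour lungs, against 189395, 183231, 169504, 215943 and 174934 in tumour-free lungs. The groups did not overlap in either genotype, and the MT2 tumour lungs spread over 21.2-fold between the lowest and the highest. The log2 fold change was -3.44 ± 0.70 in MT2 (SE, adjusted p = 0.00109) and -2.42 ± 0.34 in WT lungs (adjusted p = 0.000102).

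Sftpb, whose hydrophobic product spreads the lipid film and is needed for lamellar bodies to form, had 1463, 2649, 5473, 11734 and 11026 in HBSS tumour lungs of MT2 mice, against 53596, 57412, 54248, 50331 and 56076 in MT2 tumour-free lungs. In WT lungs it had 21011, 5880.4, 8038, 13124 and 4270.4 with tumour and HBSS, against 52037, 54281, 50744, 57974 and 50930.1 without tumour. Every tumour lung was below every tumour-free lung, with log2 fold changes of -3.48 ± 0.50 in MT2 and -2.58 ± 0.36 in WT mice. The collectin gene Sftpa1 ranged from 883 to 18622 with tumour and HBSS, against 40703 to 46058 without tumour in MT2 mice (log2 -3.33 ± 0.68), and from 1827 to 16806, against 37488 to 44319.7, in WT mice (log2 -2.91 ± 0.47). Sftpd, the other collectin, had the smallest fold change of the 4 surfactant protein genes in both genotypes. It had 358, 732, 2509.6, 4368 and 8993 in HBSS tumour lungs of MT2 mice, against 8830.2, 10289, 9013, 9319 and 9503 in MT2 tumour-free lungs, and tumour replicate 5 lay within the tumour-free range (log2 -2.29 ± 0.72, adjusted p = 0.0143). In WT mice the groups did not overlap, at 1440.2 to 4751 with tumour and HBSS, against 8265 to 11236 without tumour (log2 -1.65 ± 0.26).

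The lamellar body genes were lower as well. Abca3, whose product pumps phospholipid into lamellar bodies, had 663, 1155, 937, 1489 and 588 in HBSS tumour lungs of MT2 mice, against 8431, 8798, 7913, 7541 and 8171 in MT2 tumour-free lungs. In WT mice it had 2252, 869.6, 1046, 1538 and 729.9 with tumour and HBSS, against 7229, 8153, 8487, 8016 and 7809 without tumour. The tumour lungs were far below the tumour-free lungs with no overlap, and the MT2 tumour lungs varied by 2.53-fold, against 21.2-fold for Sftpc in the same lungs. The log2 fold changes were -3.16 ± 0.23 in MT2 (adjusted p = 7.2e-07) and -2.75 ± 0.26 in WT mice (adjusted p = 9.6e-06).

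Lamp3, a membrane protein gene of lamellar bodies that mature dendritic cells also express, had the largest fold change of the 10 genes in MT2 mice. It had 159, 240.4, 264, 973 and 1798 in HBSS tumour lungs of MT2 mice, against 8705, 9558, 8252, 7844 and 8421 in MT2 tumour-free lungs (log2 -4.25 ± 0.57). In WT mice it had 3038, 1021, 849, 1495 and 434 with tumour and HBSS, against 6988, 7895, 8377, 8120.4 and 7928 without tumour (log2 -2.82 ± 0.41). The groups did not overlap. Of 6 mature dendritic cell markers, 4 were called lower and 1 (Fscn1) higher in MT2, and 3 lower and 1 (Fscn1) higher in WT mice. Lpcat1, whose enzyme makes the disaturated phosphatidylcholine of surfactant, ranged from 575 to 2897 in HBSS tumour lungs of MT2 mice, against 6612 to 7770.1 in MT2 tumour-free lungs, and from 771 to 2867, against 6774 to 7469, in WT mice (log2 -2.35 ± 0.37 and -2.02 ± 0.28).

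Napsa, the aspartic protease gene for processing of the surfactant protein B precursor, ranged from 199 to 3037 in HBSS tumour lungs of MT2 mice, against 4700.3 to 5531 in MT2 tumour-free lungs, and from 756 to 2270.4, against 4736 to 5483, in WT mice (log2 -2.62 ± 0.63 and -1.95 ± 0.23). Slc34a2, a sodium-phosphate cotransporter gene, ranged from 590.3 to 5300.2, against 25662 to 30998, in MT2 and from 1612 to 9850.2, against 22729 to 28315, in WT mice (log2 -3.78 ± 0.52 and -2.64 ± 0.38). Neither gene overlapped between the tumour and the tumour-free lungs of a genotype. Etv5 had the smallest fold change in MT2 mice, with 355, 554, 697, 688 and 528 in HBSS tumour lungs of MT2 mice, against 2662, 2763, 2981, 2253 and 2679 in MT2 tumour-free lungs (log2 -2.27 ± 0.18). In WT mice it had 987, 684, 676, 783 and 637 with tumour and HBSS, against 2604, 2538, 2438, 2602 and 2383 without tumour (log2 -1.75 ± 0.12). Its HBSS tumour lungs lay close together in both genotypes, over 1.96-fold in MT2 lungs.

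**Figure D2:**
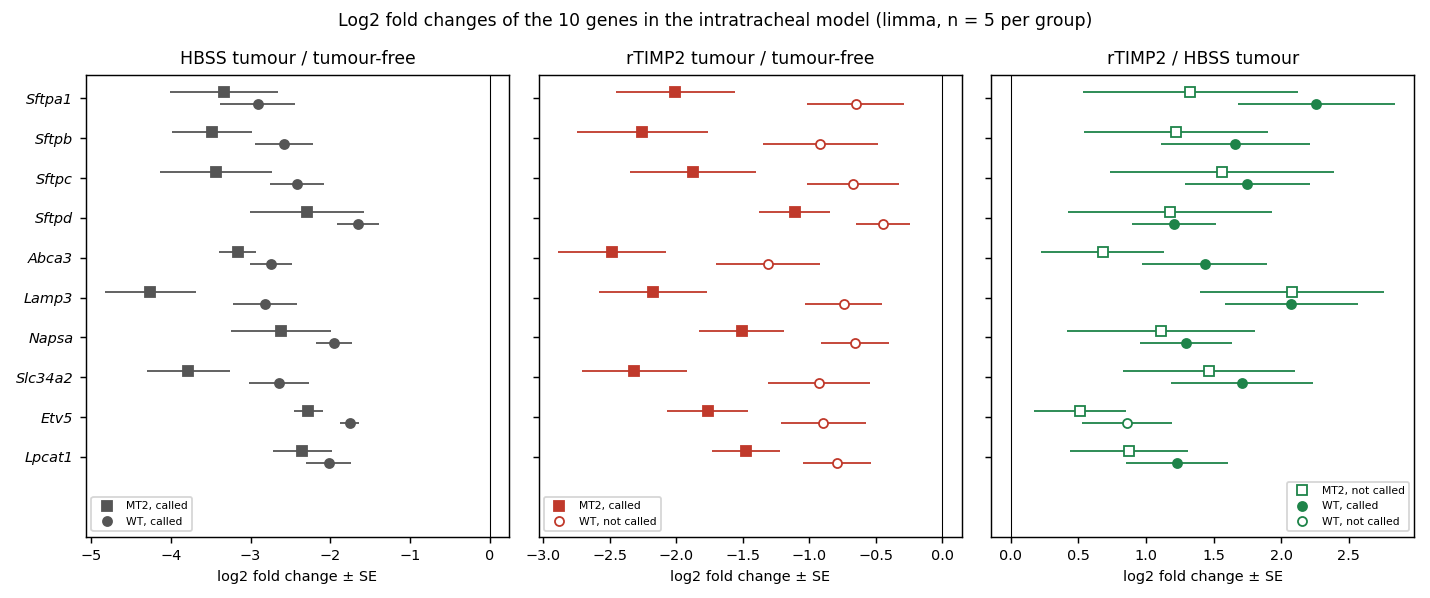
Log2 fold changes with standard errors of the 10 genes in the intratracheal experiment, for HBSS tumour over tumour-free lungs, rTIMP2 tumour over tumour-free lungs and rTIMP2 over HBSS tumour lungs; squares are MT2 and circles WT mice, filled where called by limma. All points of the first 2 panels are below 0 and all points of the third are above 0, and in the third only 9 WT points are filled.

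Most genes of the type 2, transcription factor and lipid lists were called lower in HBSS tumour lungs. Of 16 other type 2 markers, 13 were called lower and 1 higher in MT2 and 14 lower and 1 higher in WT mice, among them Hc (-5.26 ± 0.46 and -3.21 ± 0.44), a complement gene of type 2 cells in mice, and the secreted factor gene Lgi3 (-4.49 ± 0.59 and -3.25 ± 0.48). All 9 transcription factor genes of alveolar epithelium were called lower in both genotypes, with Foxa1 at -3.94 ± 0.44 in MT2 and -3.16 ± 0.51 in WT mice and Nkx2-1 at -3.82 ± 0.56 and -2.85 ± 0.38. Of 16 lipid synthesis genes, 12 were lower and 1 higher in MT2 and 13 lower and 1 higher in WT mice, led by Chpt1, a choline phosphotransferase gene (-2.74 ± 0.35 and -2.13 ± 0.35), and the desaturase gene Scd1 (-2.50 ± 0.49 and -2.06 ± 0.41).

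The FGF and ETS list of 8 genes was split, with 3 called higher and 4 lower in each genotype. The ETS factor gene Etv4 was higher (6.12 ± 0.27 in MT2 and 6.12 ± 0.31 in WT mice), while the receptor gene Fgfr2 was lower (-4.25 ± 0.49 and -3.37 ± 0.52). Of 12 genes of alveolar macrophages, which clear used surfactant, 9 were called lower in MT2 mice and 8 lower and 1 higher in WT mice, with the lectin gene Siglecf at -5.26 ± 0.58 and -4.10 ± 0.50. The damage-associated type 2 state list of 8 genes had 3 higher and 4 lower in MT2 and 3 higher and 3 lower in WT mice, including the integrin gene Itgb6 (-3.88 ± 0.46 and -2.29 ± 0.21).

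Markers of other lung cells were lower in the same lungs, with 11 of 11 type 1, 7 of 7 club and 8 of 8 endothelial genes called lower in both genotypes. The summed level of the endothelial list ranged from 2892 to 12132 in HBSS tumour lungs of MT2 mice, against 66028 to 74251 in MT2 tumour-free lungs, and from 4594 to 23846, against 66098 to 76351, in WT mice. For the club cell list the sums were 5566 to 156106, against 377561 to 431723, in MT2 and 8157 to 208815, against 396483 to 462070.0, in WT mice, and for the type 1 list 3704 to 32173, against 114525 to 120386, and 9679 to 50637, against 112781 to 122660.0. Cardiac muscle genes, which a lung piece can carry along, were called lower for 7 of 8 in both genotypes, and mesothelial genes for 2 of 4. All 6 tumour and proliferation transcripts were called higher, with Hmga2 from 2624 to 5069.6 in MT2 and 2212 to 4713 in WT HBSS tumour lungs, against 9.52 to 14.1 in MT2 and 12.6 to 27.8 in WT tumour-free lungs. Of 5 sex-linked genes, 4 were called higher in both genotypes. Ddx3y ranged from 123 to 672 over the HBSS tumour lungs and from 0.910 to 5.78 over the tumour-free lungs. Tumour and the source of this split therefore cannot be told apart in these comparisons. The part of these other transcripts in the fold changes of the 10 genes was not tested.

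Some of the 10 genes differed in proportion to Sftpc in MT2 tumour lungs. Each gene was expressed as a percent of Sftpc in the same lung, so that a change shared by both genes cancels, and the log2 ratio was compared by a two-sided exact permutation test over 9 ratios. In MT2 mice Sftpd was at 7.80, 11.2, 22.3, 11.0 and 9.25% of Sftpc in HBSS tumour lungs, against 5.16, 5.25, 4.96, 5.41 and 5.15% in tumour-free lungs. Napsa was at 4.33, 4.73, 12.5, 3.66 and 3.12%, against 2.98, 2.82, 2.69, 2.73 and 2.84%. Both were higher relative to Sftpc in every tumour lung than in any tumour-free lung, by 1.15 and 0.82 on the log2 scale. Lamp3 was lower relative to Sftpc in every MT2 tumour lung, at 3.45, 3.67, 2.35, 2.46 and 1.85%, against 5.09, 4.88, 4.54, 4.55 and 4.56% in tumour-free lungs (-0.82). These 3 ratios passed at an exact permutation adjusted p of 0.0238, from the smallest raw p that 5 against 5 lungs allow, 0.00794. None passed when any MT2 tumour-free lung was left out, although the groups of these 3 ratios still separated. With groups of unequal size, another split of the lungs can give a larger mean difference than separated groups do. Without MT2 tumour replicate 5, 5 ratios passed.

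Sftpc and Abca3 stood at opposite ends of the group in that lung. MT2 HBSS replicate 5 had Sftpc at 97273 and Abca3 at 588, the highest and the lowest of its group, so that Abca3 was at 14.4, 17.7, 8.33, 3.76 and 0.604% of Sftpc across replicates 1 to 5, against 4.93, 4.49, 4.36, 4.38 and 4.42% in MT2 tumour-free lungs. Etv5 was at 7.72, 8.46, 6.20, 1.74 and 0.543% of Sftpc, against 1.56, 1.41, 1.64, 1.31 and 1.45%. For both genes the tumour lungs lay on either side of the tumour-free lungs, and neither ratio passed (exact permutation adjusted p = 0.955 and 0.229). In WT mice 0 of 9 ratios passed, with 4 at an unadjusted exact permutation p under 0.05 and Sftpd again the highest relative to Sftpc (0.77, adjusted p = 0.0714). The WT ratio of Sftpd was higher in every tumour lung than in any tumour-free lung, at the smallest possible exact permutation p, 0.00794. A single ratio of 9 at that p has an adjusted p of 0.0714 and cannot pass alone. A difference between the genotypes in this ratio was therefore not shown. The WT count was 6 without WT HBSS replicate 1 and 6 without WT HBSS replicate 4.

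**Figure D3:**
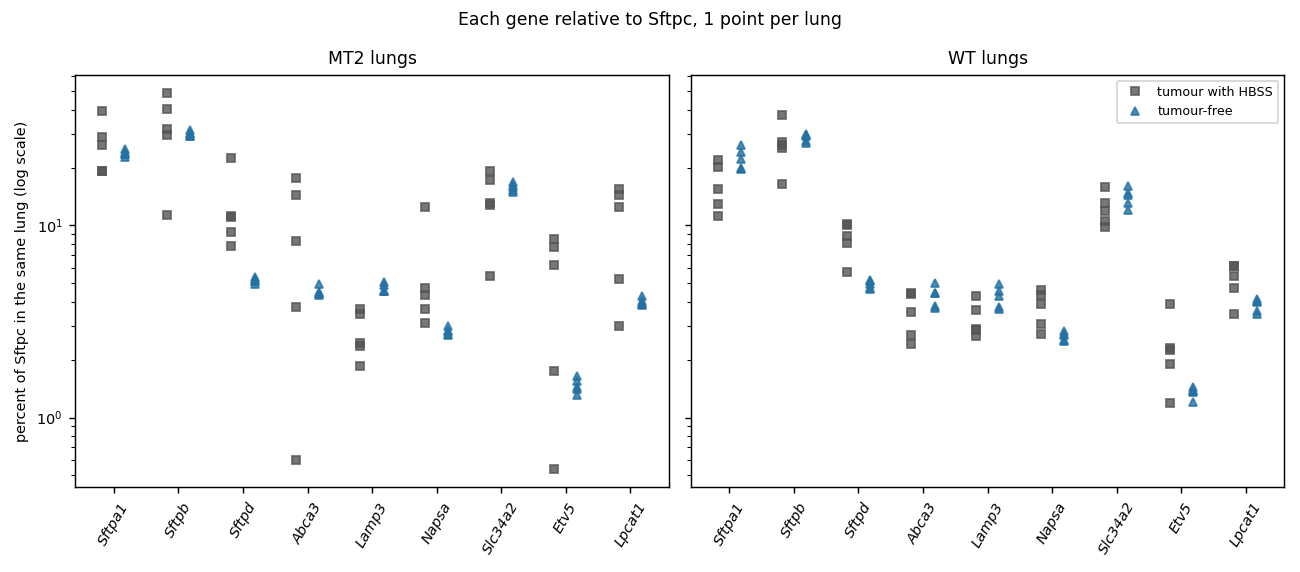
Each of the other 9 genes as a percent of Sftpc in the same lung (log axis), with HBSS tumour lungs as squares left of tumour-free lungs as triangles, MT2 at left and WT at right. The tumour-free points lie close together for every gene, and in MT2 tumour lungs Abca3 spans 0.604 to 17.7%.

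Treatment with rTIMP2 was set against HBSS in tumour lungs and against tumour-free lungs. In MT2 tumour lungs, 0 of 10 genes were called between rTIMP2 and HBSS by limma, with 2 at an unadjusted p under 0.05. No gene of the table was called (0%), with 1559 at an unadjusted p under 0.05. The log2 fold changes were all positive, from 0.51 to 2.08 (adjusted p = 0.444 to 0.601). In WT tumour lungs, 9 of 10 genes were called higher with rTIMP2 than with HBSS, where 16.0% of all genes tested were called higher. The log2 fold changes ran from 0.86 to 2.26, with a median of 1.55 (all genes 0.03), and Etv5 did not pass (adjusted p = 0.0691).

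Sftpc had 21896, 164672, 66999, 28226 and 42964 in MT2 lungs with rTIMP2, against 4598, 6542, 11249, 39572 and 97273 in MT2 lungs with HBSS. In WT mice it had 111639, 170056, 107764, 54067 and 195997 with rTIMP2, against 83334, 35878, 29539, 34905 and 16354 with HBSS. MT2 replicate 2 exceeded every HBSS lung, while the other treated MT2 lungs lay within the HBSS range (log2 1.56 ± 0.83, adjusted p = 0.541). In WT mice 4 of 5 treated lungs exceeded every HBSS lung, and treated replicate 4 fell within the HBSS range (log2 1.75 ± 0.46, adjusted p = 0.0398).

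Sftpd was the only gene of the 10 whose WT groups did not overlap (2.50% of all genes did not overlap with higher values). It had 6561, 7830.1, 5545, 4886 and 9914 with rTIMP2, against 4751, 2910.1, 2976, 3566 and 1440.2 with HBSS in WT lungs (log2 1.21 ± 0.31, adjusted p = 0.0398), and 2814, 7787, 5876, 3251 and 3679, against 358, 732, 2509.6, 4368 and 8993, in MT2 lungs (log2 1.18 ± 0.75). The lowest treated WT lung was only just above the highest HBSS lung, and the MT2 groups overlapped. For Sftpa1 the WT fold change was the largest, 2.26 ± 0.58, from 9829 to 46574 with rTIMP2, against 1827 to 16806 with HBSS, and Sftpb had 1.66 ± 0.55 (adjusted p = 0.0479).

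Abca3 had 707, 4560.2, 1013, 1645 and 1234 in treated MT2 lungs, against 663, 1155, 937, 1489 and 588 in MT2 HBSS lungs (log2 0.68 ± 0.45). In WT mice it had 4250.2, 4827, 2765, 1056 and 5563 with rTIMP2, against 2252, 869.6, 1046, 1538 and 729.9 with HBSS (log2 1.44 ± 0.46, adjusted p = 0.0454). As with Sftpc, the lowest treated WT lung was replicate 4 and the highest treated MT2 lung was replicate 2. Lamp3 (log2 2.07 ± 0.49), Slc34a2 (1.71 ± 0.53), Napsa (1.30 ± 0.34) and Lpcat1 (1.23 ± 0.37) were called higher in treated WT lungs, at adjusted p from 0.0398 to 0.0479 over the 9 called genes. Etv5 had 1483, 1665, 1019.7, 646 and 2766 with rTIMP2, against 987, 684, 676, 783 and 637 with HBSS (log2 0.86 ± 0.33). Proportions among the 10 genes passed for 0 of 9 ratios in either genotype, with 0 in MT2 and 4 in WT mice at an unadjusted exact permutation p under 0.05, and for 3 in WT mice without WT HBSS replicate 1. Without the treated lungs of a reporter under 1, 0 of 9 ratios passed in either genotype, with 0 at an unadjusted exact permutation p under 0.05. The exact permutation adjusted p was 0.667 to 0.825 in MT2 and 0.6 to 0.81 in WT mice. In WT mice this left 2 treated lungs, where a ratio could pass only if all 9 had the smallest possible p. The reduced WT test therefore could not decide whether proportions differed.

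The share of the library held by the 10 genes was set beside the tumour reporter of each lung. Together the 10 genes took 0.331, 2.22, 0.794, 0.506 and 0.608% of the summed values in treated MT2 lungs, replicates 1 to 5, and 0.0836, 0.136, 0.238, 0.631 and 1.05% in MT2 HBSS lungs. In WT mice they took 1.71, 2.23, 1.31, 0.722 and 2.66% in treated and 1.21, 0.471, 0.416, 0.584 and 0.225% in HBSS lungs. MT2 replicate 2 and WT replicates 2, 3 and 5, with a reporter under 1, held 2.22, 2.23, 1.31 and 2.66%. WT replicate 1, with a reporter of 23.3, held 1.71%, above the reporter-free replicate 3, and the treated lungs with a reporter of 37.9 or more held at most 0.794%.

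**Figure D4:**
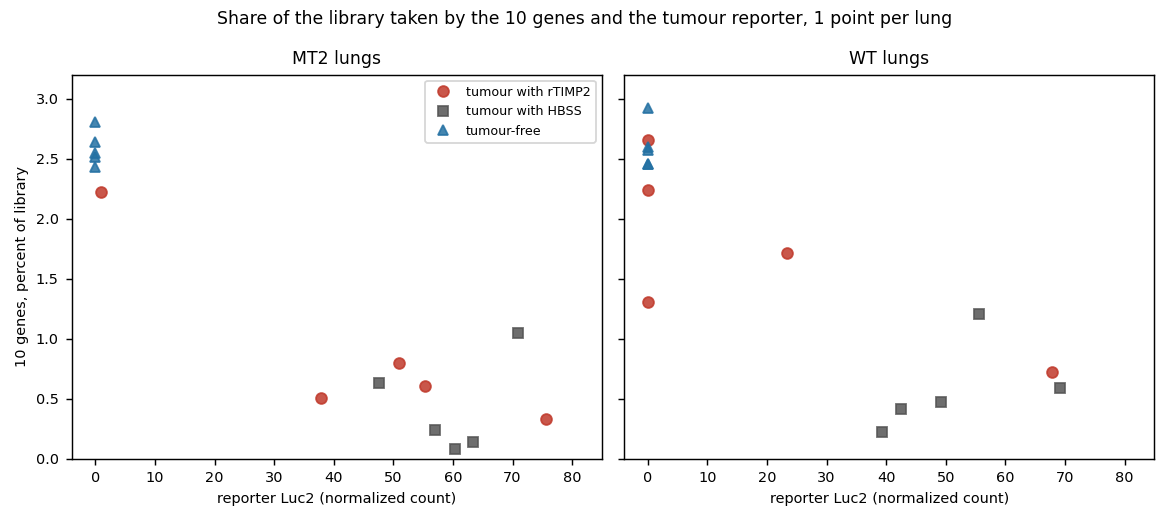
Percent of the summed values taken by the 10 genes against the tumour reporter Luc2 (normalized count), with 1 point per lung for rTIMP2 tumour, HBSS tumour and tumour-free lungs, MT2 at left and WT at right. Tumour-free lungs sit at a reporter of 0 and 2.43 to 2.92%, and the HBSS tumour lungs at 39.3 or more and at most 1.21%.

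Without the treated lungs whose reporter was under 1, 0 of 10 genes were called by limma between rTIMP2 and HBSS in WT mice (1 at an unadjusted p under 0.05), where 0% of all genes were called higher and 689 of 17850 had an unadjusted p under 0.05. That comparison then held 2 treated lungs, and all 10 log2 fold changes remained positive, from 0.40 to 1.61 (adjusted p = 0.696 to 0.702). Sftpc was at 1.16 ± 0.59 there and at 1.13 ± 0.78 in MT2 mice without replicate 2, where 0 of 10 genes were called by limma (1 at an unadjusted p under 0.05). The 9 WT calls were also lost when any of 8 single libraries was left out. These were treated WT replicates 1, 2, 3 or 5 and WT HBSS replicates 2, 3, 4 or 5. Without treated replicate 4, all 10 genes were called. The share of all genes called in these fits is not given here, so these counts cannot be read as particular to the 10 genes. With treated lungs left out by their reporter, the remaining lungs are a selection by tumour content, and whether tumour content accounts for the treated values was not tested.

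Genes of the other lists were also called between treated and HBSS lungs of WT mice with all libraries, and none of them was called by limma without the treated lungs of a reporter under 1 (10 of 123 then had an unadjusted p under 0.05). With all libraries, of 16 other type 2 markers 11 were called higher than with HBSS, including Bex2 (2.38 ± 0.68) and Lgi3 (2.38 ± 0.63), and 5 of 9 transcription factor genes were higher, led by Foxa1 (2.45 ± 0.71), Elf5 (2.20 ± 0.71) and Nkx2-1 (2.01 ± 0.61). Lipid synthesis genes were higher for 6 of 16, with Chpt1 at 1.91 ± 0.47, and macrophage clearance genes for 6 of 11. In the FGF and ETS list Fgfr2 was higher (2.40 ± 0.72) and Etv4 lower (-3.63 ± 1.03), and in the damage-associated list Areg (-1.81 ± 0.52) and Lgals3 (-0.92 ± 0.28) were lower.

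All 11 type 1, all 8 endothelial and 6 of 7 club cell markers were called higher too with all libraries, and all 6 tumour transcripts were called lower in treated WT lungs. Without the treated lungs of a reporter under 1, 0 type 1, 0 endothelial, 0 club cell and 0 tumour genes were called by limma (0, 1, 0 and 4 at an unadjusted p under 0.05). With all libraries, of 6 mature dendritic cell markers 2 were higher and 2 lower, and 2 of 4 mesothelial markers were higher. None of 8 cardiac muscle genes was called by limma (1 at an unadjusted p under 0.05), and of the sex-linked genes 4 were higher and Xist was lower (-4.04 ± 1.11). The sum of the endothelial list ranged from 9905 to 64395 with rTIMP2, against 4594 to 23846 with HBSS in WT mice, and the sum of the cardiac list from 1168 to 10943, against 158 to 7597. In MT2 mice no gene of the 14 lists was called between rTIMP2 and HBSS by limma (20 of 122 tested had an unadjusted p under 0.05), and none was without MT2 replicate 2 (15 of 122). The part of these transcripts in the WT result was not tested.

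Against tumour-free lungs, the treated MT2 lungs were lower for all 10 genes, and the treated WT lungs for none past the threshold. In MT2 mice the log2 fold changes ran from -2.48 to -1.11 (median -1.94, all genes -0.07), with 10 of 10 called lower (32.7% of all genes) and 10 of 10 not overlapping (15.0%). Abca3 was at -2.48 ± 0.41 (adjusted p = 0.00584), Sftpc at -1.87 ± 0.48 (adjusted p = 0.00864) and Sftpd at -1.11 ± 0.26 (adjusted p = 0.0072). The call of Sftpd held in 8 of 9 other settings and was lost with all groups in 1 fit (adjusted p = 0.0676, lowest 8.9e-07 with library weights). In WT mice the 10 log2 fold changes were all negative, from -1.31 to -0.45, and 0 were called by limma (7 at an unadjusted p under 0.05), where 0.208% of all genes were called in either direction and 2868 had an unadjusted p under 0.05. All values of Sftpb and Abca3 were lower in treated than in tumour-free WT lungs, and 6.55% of all genes separated in this way.

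The WT count was different without the treated lungs of a reporter under 1. When they were left out, all 10 genes were called lower in the remaining 2 treated WT lungs than in tumour-free lungs, with log2 fold changes from -1.90 to -0.70 (adjusted p = 0.0111 to 0.0346), and Sftpc at -1.26 ± 0.34. In that reduced comparison 21.5% of all 17561 genes tested were called lower and 2535 genes were called higher. Leaving out treated replicate 4 or 5 alone gave 1 called gene each (share of all genes not given here). In MT2 mice the 10 calls held without replicate 2 (log2 -2.89 to -1.32), where 39.4% of all genes were called lower. With all 5 treated MT2 lungs 12 of 16 other type 2 markers, 9 of 9 transcription factors, 12 of 16 lipid synthesis genes and 9 of 12 macrophage clearance genes were called lower than in tumour-free lungs, as were 11 of 11 type 1, 7 of 7 club, 8 of 8 endothelial and 7 of 8 cardiac genes. Without replicate 2 these counts were 12 of 16, 9 of 9, 13 of 16 and 10 of 12, and 11 of 11, 7 of 7, 8 of 8 and 7 of 8. These comparisons share tumour-free and treated lungs with those above.

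Between genotypes, none of the 10 genes was called. In tumour-free lungs the MT2 over WT log2 fold changes ran from -0.04 to 0.14 and 0 of 10 were called by limma (1 at an unadjusted p under 0.05), where 0.0238% of all genes were called and 1633 had an unadjusted p under 0.05. Sftpc averaged 181138 ± 10122 in MT2 and 186601 ± 18087 in WT tumour-free lungs (SD, n = 5 each), and Abca3 averaged 8171 ± 481 and 7939 ± 467. In HBSS tumour lungs all 10 MT2 over WT log2 fold changes were negative, from -1.32 to -0.31, although the mean normalized counts of Sftpa1 and Sftpd were higher in MT2 mice, and 0 passed (adjusted p = 0.68 to 0.959; 0 at an unadjusted p under 0.05), with 0% of all genes called and 1208 at an unadjusted p under 0.05. With rTIMP2 the MT2 over WT values ran from -1.31 to -0.63, and again 0 passed (adjusted p = 0.264 to 0.268; 3 at an unadjusted p under 0.05), with 0% of all genes called and 2998 at an unadjusted p under 0.05.

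MT2 replicate 2 decided that last count. Without it, all 10 genes were called lower in treated MT2 than in treated WT lungs, with Sftpc at -1.68 ± 0.44 (adjusted p = 0.0245). In the same fit 21.0% of all 17051 genes were called lower and 2432 were called higher. When the 3 reporter-free WT lungs were left out along with it, 0 were called by limma (2 at an unadjusted p under 0.05) and Sftpc was at -1.09 ± 0.51 (adjusted p = 0.479). The test of the difference itself called none of the 10 genes. For genotype and tumour the interaction ran from -1.44 to -0.33 (0 of 10 called, 1 at an unadjusted p under 0.05), with 0.0223% of all genes called, and for genotype and rTIMP2 from -0.93 to 0.01 (0 of 10 called, 0 at an unadjusted p under 0.05), with 0% of all genes called and 1053 at an unadjusted p under 0.05. Without the treated lungs of a reporter under 1 the interaction with rTIMP2 was negative for 8 and positive for 2 genes, and 0 of 10 were called by limma (0 at an unadjusted p under 0.05, and 418 over all genes).

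By group mean, 7 of the 10 genes had the same order over the 6 intratracheal groups, with MT2 tumour-free lungs highest, then WT tumour-free, WT rTIMP2, MT2 rTIMP2, WT HBSS and MT2 HBSS lungs. Sftpa1 and Sftpd differed from this order only in the last 2 groups, and Sftpc only in the first 2. Most neighbours in the order overlapped, and the only neighbouring pair to separate was WT tumour-free over WT rTIMP2 for Sftpb and Abca3.

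The subcutaneous experiment, where the tumour grew under the skin, had no tumour-free group. The median log2 fold changes of the 10 genes between rTIMP2 and HBSS were negative here. In the airway model they were positive and larger in size, at 1.20 in MT2 and 1.55 in WT mice. The start day of treatment in the airway model is not given here. Of the 10 genes, 9 had their highest group mean with HBSS. With rTIMP2 from day 7, 5 genes were called lower than with HBSS (Sftpb, Sftpc, Sftpd, Abca3 and Napsa), where 5.92% of all genes tested were called lower. With rTIMP2 from day 0, 2 genes were called lower (Sftpc and Sftpd), where 4.21% were. Groups without overlap, lower with rTIMP2, were found for 8 genes from day 7 (8.12% of all genes) and for 2 genes from day 0 (4.65%). The median log2 fold change of the 10 was -0.26 from day 7 and -0.23 from day 0, against 0.01 and -0.00 over all genes. The 2 comparisons share the HBSS lungs.

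**Figure D5:**
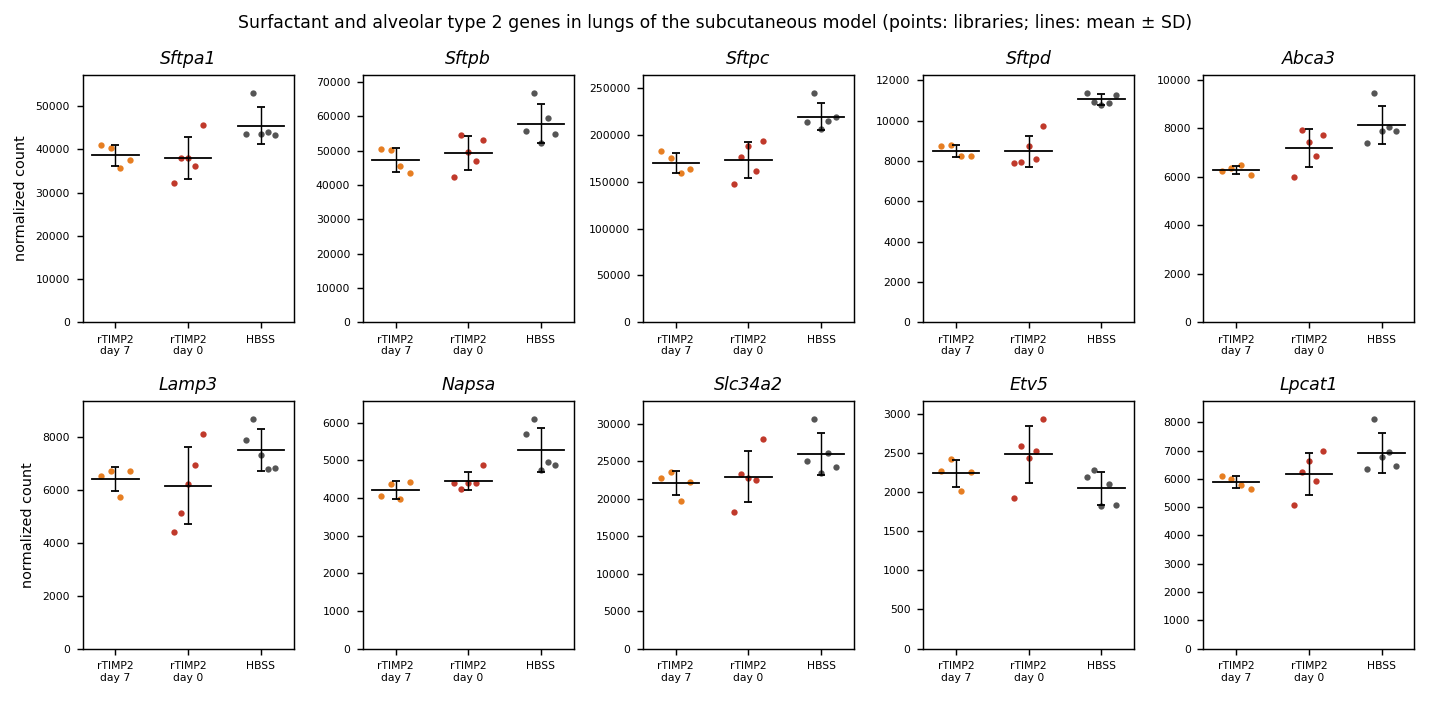
Normalized counts of the 10 genes in lungs of the subcutaneous experiment with rTIMP2 from day 7 (n = 4), rTIMP2 from day 0 (n = 5) and HBSS (n = 5), with 1 point per lung and lines at the mean ± SD. Sftpc and Sftpd lie below all HBSS lungs in both treated groups, and Etv5 has its lowest mean with HBSS.

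Sftpc had 182400.0, 175202, 158813 and 163617 normalized counts with rTIMP2 from day 7 and 147062, 175818, 187965, 160963 and 193667 with rTIMP2 from day 0, against 213408, 244730.0, 205729, 214641 and 218969 with HBSS. Every treated lung was below every HBSS lung. The log2 fold change was -0.37 ± 0.08 from day 7 (adjusted p = 0.0114) and -0.35 ± 0.10 from day 0 (adjusted p = 0.0418), and the day 0 call held in 2 of 10 fits that left out a library (adjusted p up to 0.1). Sftpd had 8766, 8783, 8252 and 8261 from day 7 and 7907, 7943, 8729, 8107 and 9731 from day 0, against 11385, 10922, 10795, 10902 and 11301 with HBSS. It too was lower in every treated lung, with log2 fold changes of -0.38 ± 0.06 (adjusted p = 0.00255) and -0.39 ± 0.08 (adjusted p = 0.00652), and its calls held without any single library.

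Sftpb had 50329.8, 50218, 45489 and 43401 with rTIMP2 from day 7 and 42431, 54578, 49433, 47098 and 52968 from day 0, against 55593, 66789.5, 52078, 59509 and 54874 with HBSS. The day 7 lungs lay below the HBSS lungs and 2 of the day 0 lungs overlapped with them (log2 -0.28 ± 0.08, adjusted p = 0.0465, and -0.23 ± 0.10, adjusted p = 0.145). The day 7 call of Sftpb held in 2 of 9 fits that left out a library and that of Napsa in 6 of 9. Sftpa1 had log2 fold changes of -0.23 ± 0.08 and -0.26 ± 0.10 (adjusted p = 0.0767 and 0.112), with HBSS replicate 2 far above the other HBSS lungs at 53102.

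Abca3 was called with rTIMP2 from day 7 and not from day 0. It had 6234, 6341, 6461 and 6075 from day 7 and 5999, 7903, 7427, 6862 and 7717 from day 0, against 7400.2, 9452, 7869, 8052 and 7864 with HBSS. All day 7 lungs were below all HBSS lungs (log2 -0.37 ± 0.07, adjusted p = 0.00751), while 3 of 5 day 0 lungs overlapped with them (-0.18 ± 0.09, adjusted p = 0.229). The direct comparison of day 7 with day 0 gave -0.19 ± 0.08 for Abca3 and called 0 of 10 genes by limma (log2 -0.19 to 0.09, adjusted p = 0.345 to 0.969; 1 at an unadjusted p under 0.05), where 0.235% of all genes were called. A difference between the start days was thus not shown for any of the 10.

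Lpcat1, Lamp3 and Slc34a2 did not pass at either start day. Lpcat1 had log2 fold changes of -0.23 ± 0.07 from day 7 and -0.17 ± 0.10 from day 0 (adjusted p = 0.0623 and 0.285), Lamp3 -0.22 ± 0.08 and -0.31 ± 0.14 (adjusted p = 0.0997 and 0.196), and Slc34a2 -0.23 ± 0.09 and -0.18 ± 0.11 (adjusted p = 0.0995 and 0.309). Lamp3 was the most variable of the 10 from day 0, from 4412 to 8114, against 6770.3 to 8670.2 with HBSS. Napsa ranged from 3964 to 4428 from day 7 and from 4232 to 4864 from day 0, against 4732 to 6089.7 with HBSS, with log2 fold changes of -0.32 ± 0.08 (adjusted p = 0.0235) and -0.24 ± 0.08 (adjusted p = 0.0881).

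Etv5 had positive fold changes, unlike the other 9 genes. It had 2271, 2429, 2012 and 2261 with rTIMP2 from day 7 and 1929, 2594, 2436, 2519.9 and 2933 from day 0, against 2189.8, 2281, 1828, 2100.0 and 1838 with HBSS. The groups overlapped and neither change passed (log2 0.13 ± 0.08, adjusted p = 0.3, and 0.27 ± 0.10, adjusted p = 0.113). Relative to Sftpc of the same lung, however, the groups separated. Etv5 was at 1.24, 1.39, 1.27 and 1.38% of Sftpc from day 7 and 1.31, 1.48, 1.30, 1.57 and 1.51% from day 0, against 1.03, 0.932, 0.889, 0.978 and 0.839% with HBSS, so that every treated lung had a higher ratio than any HBSS lung. The log2 ratio was higher by 0.62 from day 0 (exact permutation adjusted p = 0.0238 over 9 ratios) and by 0.50 from day 7 (adjusted p = 0.0714). From day 0 the ratios of Abca3 (0.17) and Lpcat1 (0.18) to Sftpc also passed, and 6 ratios passed without day 0 replicate 3. From day 7, 0 of 9 passed, with 4 at an unadjusted exact permutation p under 0.05. Etv5 had the smallest exact permutation p that 4 against 5 lungs allow there, 0.00794, and a single ratio of 9 at that p cannot pass alone. With Sftpb in place of Sftpc as the denominator, 0 of 9 passed from day 0.

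A minority of the other type 2 markers passed the test. Of 16 markers beyond the 10, 7 were called lower from day 7 (13 at an unadjusted p under 0.05), led by Bex2 (-0.51 ± 0.09), the calcium-binding protein gene S100g (-0.51 ± 0.13) and the chemokine gene Cxcl15 (-0.49 ± 0.11). From day 0, 5 were called lower (11 at an unadjusted p under 0.05), led by the lysophospholipid transporter gene Mfsd2a (-0.78 ± 0.16), the alarmin gene Il33 (-0.63 ± 0.14) and the potassium channel gene Kcnj15 (-0.56 ± 0.14). None was called higher. Of 16 lipid synthesis genes 4 were lower from day 7, and 3 were lower and 1 (Insig1) higher from day 0. Scd1 (-0.63 ± 0.12 and -0.74 ± 0.15) and the fatty acid synthase gene Fasn (-0.41 ± 0.10 and -0.43 ± 0.11) were among them at both start days.

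Of 9 transcription factor genes, 0 were called from day 7 by limma (1 at an unadjusted p under 0.05) and 2 were lower from day 0, Klf5 (-0.44 ± 0.09) and Foxa1 (-0.35 ± 0.09). In the FGF and ETS list the ligand gene Fgf7 was higher from day 7 (0.55 ± 0.09) while Spry2 (-0.31 ± 0.07) and Fgfr2 (-0.27 ± 0.06) were lower, and 0 of 8 were called from day 0 (2 at an unadjusted p under 0.05). No macrophage clearance gene of 12 was called at either start day (2 from day 7 and 1 from day 0 at an unadjusted p under 0.05). The damage-associated list had 3 of 8 lower from day 7 and 4 from day 0, among them the cell cycle inhibitor gene Cdkn1a (-1.01 ± 0.23 and -1.47 ± 0.19) and the growth factor gene Areg (-0.90 ± 0.18 and -1.15 ± 0.24).

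Markers of other cells were measured beside these changes. Type 1 markers were lower for 2 of 11 from day 7 and 1 of 11 from day 0 (3 and 5 at an unadjusted p under 0.05), endothelial markers for 1 of 8 (Cldn5) at both (3 and 3), and club cell markers for 0 of 7 at both (2 and 4 at an unadjusted p under 0.05). Mature dendritic cell markers were lower for 1 of 6 (Ccl17) from day 7 and 0 from day 0 (1 at an unadjusted p under 0.05). Of the tumour and proliferation list, with 3 of 6 genes tested, Mki67 was higher from day 7 (0.38 ± 0.08) and 0 were called from day 0 (0 at an unadjusted p under 0.05). Of 5 sex-linked genes 0 were called by limma at either start day (2 from day 7 and 3 from day 0 at an unadjusted p under 0.05).

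Mesothelial markers, from the outer lining of the lung, were lower for 3 of 4 from day 7 and 1 of 4 (Wt1) from day 0 (3 of 4 at each start day at an unadjusted p under 0.05), with summed levels of 421 to 809 and 588 to 1529, against 941 to 4487 with HBSS. Cardiac muscle markers were lower for 1 of 8 from day 7 and 2 of 8 from day 0, while 7 of 8 and 8 of 8 had an unadjusted p under 0.05 and all 8 log2 fold changes were negative at both start days, with sums of 9174 to 11531 and 7152 to 14861, against 10827 to 20385. No marker of either list was at 0 in a whole group, and the part of these tissues in the surfactant gene values was not tested. Together the 10 genes took 1.87 ± 0.116% of the summed values from day 7 and 1.93 ± 0.239% from day 0, against 2.29 ± 0.117% with HBSS (SD, n = 4, 5 and 5).

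Across all 44 libraries the 10 genes fell into profiles of different likeness. Likeness was measured as the root-mean-square difference of log2 profiles, centred within each experiment, over 13221 genes. Sftpb and Slc34a2 were each other's nearest gene (0.18), and Napsa was the nearest gene to Sftpd (0.23). Abca3 and Etv5 had none of the other members among their 20 nearest genes, and their nearest members were at rank 297 (Etv5) and rank 210 (Lpcat1). The libraries share tumour content and tissue make-up, so this is a description of the profiles.

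The nearest genes outside the set differed between the members. For the surfactant proteins they were Bambi (0.22), Spint2 (0.22) and Sfta2 (0.25) for Sftpc, Icam1 (0.21), Chil1 (0.22) and Llgl2 (0.22) for Sftpb, Mlc1 (0.23), Cldn3 (0.26) and Tspan2 (0.27) for Sftpa1, and Tspan11 (0.23), Fas (0.30) and Crb3 (0.32) for Sftpd, with the root-mean-square log2 difference in parentheses. For the lamellar body genes and the lipid enzyme gene they were Fam53b (0.22), Radil (0.23) and Nrp1 (0.23) for Abca3, Alcam (0.25), Pls1 (0.25) and Csrp1 (0.25) for Lpcat1, and Cxcl15 (0.24), AU021092 (0.30) and Tspan8 (0.30) for Lamp3. Napsa had Dram1 (0.22), Krt7 (0.25) and Crb3 (0.26), Slc34a2 had Chil1 (0.19), Mlc1 (0.21) and Plet1 (0.23), and Etv5 had Sh3bp4 (0.21), Rps6ka1 (0.23) and Cadm1 (0.23). Of the 16 other type 2 markers, Chil1, Cxcl15 and Dram1 were among these nearest genes.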

How the data were processed

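The values were made by the authors and deposited as normalized counts, a signal that is scaled per library and not whole, with 1 value per gene and library. The tools named per the submitters' processing notes are Bowtie2, DESeq2, Partek and STAR, and the build is mm10; roles, versions and annotation were not given in the sources used here. Low values stepped by a constant, but only 78.9 to 84.5% were whole multiples of it (tolerance 0.02, up to 20 steps), so no count model was fitted; the step gave the estimated depth. Nothing states separate animals beyond the sample titles, so p-values measure the spread between these samples.

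On log2(value + 1), limma 3.58.1 (R 4.3.3, trend and robust) was run with the compared groups only. Genes needed 10 or more normalized counts in as many libraries as the smaller group has, and p-values were adjusted by Benjamini-Hochberg over all of them. A gene was called at an adjusted p under 0.05. Fold changes are on the log2(value + 1) scale. Log2 ratios to Sftpc were compared by two-sided exact permutation tests in 6 comparisons. The fits were also run on simulated data, in which both groups had the reference group's spread per gene and genes varied independently. Intratracheal tumour lungs spread more widely than tumour-free lungs, so these runs do not cover that setting. No sample was dropped or imputed, and 0 pairs of libraries held identical values. Alternatives were another pseudocount (10), no filter, other scalings, another variance model, all groups in 1 fit, library weights, a replicate block, treated lungs without reporter, and each library left out.

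All 10 members are named. Of each of 14 gene lists (124 genes: other type 2 markers, alveolar transcription factors, lipid synthesis, FGF and ETS, macrophage clearance, damage-associated state, type 1, club, endothelial, mature dendritic, cardiac, mesothelial, tumour and sex-linked genes) at most 3 called genes with the largest fold change were named, besides genes that a count of 5 or fewer singles out, and 3 nearest genes per member. The members and lists were chosen with earlier results of these data known.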

Additional observations from a re-analysis of the deposited data

Results flagged for a closer look

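In 90 combinations of a gene and a group, 12 single lungs lay apart from the rest of their group by Dixon's test, which flags about 1 in 20 groups by chance. MT2 replicate 2 with rTIMP2 lay above its group in this way for 8 genes. It had Sftpa1 at 38182 (the next highest lung had 11856), Sftpb at 42401 (11286), Abca3 at 4560 (1645), Lamp3 at 6004 (2123), Napsa at 4403 (1899), Slc34a2 at 16883 (5494), Etv5 at 1790.4 (786) and Lpcat1 at 5309 (2462). This lung had a reporter value of 0.983, against 37.9 to 75.5 in the other treated MT2 lungs.

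WT tumour-free replicate 4 was the highest of its group for Sftpd at 11236 (the next had 9103) and for Napsa at 5483 (4915). In the subcutaneous experiment, day 0 replicate 5 had Napsa at 4864 (the next had 4403) and HBSS replicate 2 had Sftpa1 at 53102 (44141). What sets these lungs apart was not tested.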

How the results depend on the processing

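Of the single-gene results called in the reported fit or in the alternative, 0 changed direction under the alternatives run. Signs of genes called in neither fit were not counted here. Such signs could change, as in the interaction of genotype with rTIMP2 without the treated lungs of a reporter under 1. The count of genes called by limma with rTIMP2 from day 0 went to 1 with equal library totals and to 1 with equal 75th percentiles (2 as reported), and that from day 7 to 3 with eBayes without trend or robust options (5 as reported). Without treated lungs of a reporter under 1, rTIMP2 against HBSS in WT tumour lungs had 0 (9 as reported) and rTIMP2 tumour against tumour-free WT lungs had 10 (0 as reported). With library weights, rTIMP2 tumour against tumour-free WT lungs had 5, rTIMP2 against HBSS in MT2 mice had 1, MT2 against WT with rTIMP2 had 10 and the interaction of genotype with rTIMP2 had 1 (0 as reported for each). With all groups in 1 fit, rTIMP2 against HBSS in MT2 mice had 1. With Sftpb as denominator, the ratios had 0 calls from day 0 (3 as reported) and 2 for tumour against tumour-free WT lungs (0 as reported). These counts are given here without the share of all genes called in the same fits. A shift over all genes therefore cannot be told apart from a shift of the 10. The cause of these shifts was not tested. The counts of list genes and of ratios without treated lungs of a reporter under 1 were added after the data were seen.

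Leaving out each library in turn gave 1 to 2 called genes from day 0 (1 without day 0 replicate 2 or 4 or any HBSS lung), 3 to 6 from day 7 (3 without day 7 replicate 1, 2 or 3), 0 between the start days, 10 for tumour against tumour-free lungs in each genotype, 10 and 0 to 1 for rTIMP2 tumour against tumour-free MT2 and WT lungs, 0 and 0 to 10 for rTIMP2 against HBSS in MT2 and WT mice, 0 to 10 for MT2 against WT with rTIMP2, and 0 for the other genotype comparisons and interactions. The ratios had 3 to 6 calls from day 0, 0 from day 7, 0 to 5 and 0 to 6 for tumour against tumour-free MT2 and WT lungs, and 0 and 0 to 3 for rTIMP2 against HBSS in MT2 and WT mice. Of 1180 values of single genes under other settings, 33 lost and 34 gained a call, and of 1580 with a library left out 90 lost and 15 gained one. These counts too are given without the share of all genes called in the same fits.

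Replicate numbers repeat between groups, but they did not pair the libraries, since in 0 of 12 comparisons every same-numbered pair correlated above 0.1 (r from -0.57 to 0.78), and in 0 did every library correlate best with its own number. With a replicate block, 0 genes were called for rTIMP2 against HBSS in WT tumour lungs, 2 from day 0 and 4 from day 7.

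The lowest value of the 10 genes was 159 normalized counts. The limits are the 4 or 5 lungs per group, lung pieces of mixed make-up, tumour-free lungs that differ from tumour lungs in sex-linked transcripts, and treated lungs without tumour reporter.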
